A study of Mus musculus with 2 samples.

Results

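Glycolysis and the response to low oxygen were followed through 36 genes in mouse knee joint cells. The genes were chosen by symbol. Of these, 19 encode glucose and lactate transporters, glycolytic enzymes and their regulators, and 17 are other known targets of the hypoxia-inducible factors (HIF). All 36 were among the 32285 features of the deposited count matrices. There were 2 libraries, 1 after DMM surgery (in this field, destabilisation of the medial meniscus, which is used to provoke osteoarthritis) and 1 after sham surgery. Each library held the pooled cells of 3 mice labelled WT; strain, age and time after surgery are not given in the sources used here. Per the labels, cells freed by collagenase and dispase were stained and sorted as viable (CalceinAM+DAPI-) and CD45-Ter119-CD31-, and went onto a 10x Genomics 3' kit. With 1 library for each surgery there is no replicate check: ratios between DMM and sham describe these 2 libraries, the intervals cover counting error only, and no test was made.

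Glycolysis splits glucose into pyruvate, and lactate dehydrogenase turns pyruvate into lactate, which leaves the cell through a transporter. Articular cartilage has no blood vessels, and its chondrocytes live at low oxygen and rely largely on glycolysis for energy. When oxygen is low, prolyl hydroxylases no longer mark the HIF alpha subunits for destruction, and HIF then switches on glycolytic genes together with genes for mitophagy, collagen modification, pH control, lipid storage and blood vessel growth.

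HIF binds the core letters ACGTG or GCGTG, and these letters were looked for on both strands in 300 bases around each gene's start, from the RefSeq promoter table of the GRCm38.p6 build. Matches that overlap, as in CACGCGTG, were each counted. All 19 glycolytic genes had an entry, and 17 of them (89.5%) held at least 1 match. Of the 17 HIF targets, 14 had an entry and 13 of these (92.9%) held a match. Of all 27025 genes with a window, 12628 (46.7%) held one, so the letters alone are common. The members with an entry and no match were Tpi1, Gpi1 and Car12. Matches describe the letters in a window and say nothing about binding. The windows below belong to the members with the highest and lowest DMM over sham ratios in superficial-like cells within each of the 2 groups, so that the letters of genes with ratios of opposite sign can be set side by side. Where a gene has several windows, as Eno1 and Pfkfb3 do, the one listed first is shown. They lie at chr6:124814109-124814408 on the minus strand for Tpi1, chr4:150236458-150236757 on the plus strand for Eno1, chr2:11553880-11554179 on the minus strand for Pfkfb3 and chr9:108991652-108991951 on the plus strand for Pfkfb4. The others lie at chr8:45999801-46000100 on the minus strand for Ankrd37, chr9:121857747-121858046 on the minus strand for Higd1a, chr10:59951721-59952020 on the minus strand for Ddit4 and chr8:124949205-124949504 on the minus strand for Egln1. Capitals mark the core letters on either strand, so CACGT and CACGC are the same cores read from the other strand.
Tpi1: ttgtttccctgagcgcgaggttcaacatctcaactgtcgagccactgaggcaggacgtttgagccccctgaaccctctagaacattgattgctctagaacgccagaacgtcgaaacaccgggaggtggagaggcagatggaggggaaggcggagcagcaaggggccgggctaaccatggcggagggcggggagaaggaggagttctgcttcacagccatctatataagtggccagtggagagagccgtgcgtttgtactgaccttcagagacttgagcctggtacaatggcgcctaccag
Eno1: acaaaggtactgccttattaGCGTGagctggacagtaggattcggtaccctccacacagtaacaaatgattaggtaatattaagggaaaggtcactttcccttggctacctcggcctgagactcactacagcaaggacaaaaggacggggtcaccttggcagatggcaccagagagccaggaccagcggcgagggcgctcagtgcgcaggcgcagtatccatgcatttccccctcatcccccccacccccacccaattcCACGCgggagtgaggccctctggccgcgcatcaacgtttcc
Pfkfb3: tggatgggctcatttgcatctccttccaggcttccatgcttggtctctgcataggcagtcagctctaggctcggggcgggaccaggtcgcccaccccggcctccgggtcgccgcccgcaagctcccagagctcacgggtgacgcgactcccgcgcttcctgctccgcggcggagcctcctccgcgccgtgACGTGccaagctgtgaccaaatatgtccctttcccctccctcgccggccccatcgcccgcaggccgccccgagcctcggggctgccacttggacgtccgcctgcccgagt
Pfkfb4: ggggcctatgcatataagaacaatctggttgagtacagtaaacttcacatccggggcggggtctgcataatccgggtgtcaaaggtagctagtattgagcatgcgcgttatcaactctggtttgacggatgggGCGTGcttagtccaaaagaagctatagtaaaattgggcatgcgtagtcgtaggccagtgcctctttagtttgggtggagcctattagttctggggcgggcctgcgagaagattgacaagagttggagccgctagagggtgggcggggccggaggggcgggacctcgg
Ankrd37: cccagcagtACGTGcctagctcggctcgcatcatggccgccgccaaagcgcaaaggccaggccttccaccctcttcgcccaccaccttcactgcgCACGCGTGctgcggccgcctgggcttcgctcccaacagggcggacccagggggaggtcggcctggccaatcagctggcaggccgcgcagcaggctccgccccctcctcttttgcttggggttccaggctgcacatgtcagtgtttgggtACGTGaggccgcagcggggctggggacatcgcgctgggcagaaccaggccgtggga
Higd1a: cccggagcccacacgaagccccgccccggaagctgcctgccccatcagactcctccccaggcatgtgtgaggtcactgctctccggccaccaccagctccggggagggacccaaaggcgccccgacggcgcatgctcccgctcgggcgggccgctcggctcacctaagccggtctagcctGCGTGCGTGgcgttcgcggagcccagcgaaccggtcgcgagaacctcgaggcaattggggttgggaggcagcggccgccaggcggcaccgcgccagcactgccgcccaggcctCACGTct
Ddit4: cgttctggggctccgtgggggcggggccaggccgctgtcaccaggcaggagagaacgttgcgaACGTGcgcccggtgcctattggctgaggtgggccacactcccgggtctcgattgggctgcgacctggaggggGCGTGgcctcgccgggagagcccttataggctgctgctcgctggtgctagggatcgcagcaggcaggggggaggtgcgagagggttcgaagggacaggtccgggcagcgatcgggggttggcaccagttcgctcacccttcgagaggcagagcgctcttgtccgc
Egln1: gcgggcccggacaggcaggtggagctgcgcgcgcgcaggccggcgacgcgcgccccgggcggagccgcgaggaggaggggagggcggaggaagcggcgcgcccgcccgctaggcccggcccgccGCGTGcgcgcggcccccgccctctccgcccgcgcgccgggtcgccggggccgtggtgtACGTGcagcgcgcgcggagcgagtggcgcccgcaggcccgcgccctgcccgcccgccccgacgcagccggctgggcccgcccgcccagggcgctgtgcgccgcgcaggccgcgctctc

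Tpi1, with the largest glycolytic ratio, had no match in its window, whereas Eno1, next to it in size, had 2. The genes with the lowest ratios also carried the letters: 1 match each for Pfkfb3 and Pfkfb4, and 2 each for Ddit4 and Egln1. Ankrd37 had 4 matches and Higd1a had 3.

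The DMM library held 11076 barcodes and 97346999 UMIs and the sham library 11362 barcodes and 106799078 UMIs. Filtering left 9547 DMM cells (median 7871 UMIs) and 9483 sham cells (median 8043 UMIs), and the libraries shared 24 barcodes. The labels call the cells superficial, but clusters with the markers of other cell types were also present. Classes were named from markers after clustering without the 36 genes. Superficial-like cells numbered 1029 in DMM and 1319 in sham, chondrocyte-like cells 1171 and 1538, hypertrophic-like cells 392 and 479, lining-like cells 875 and 320, and fibroblast-like cells 1319 and 1300. A cluster led by Krt17 (958 DMM and 647 sham cells) had the surface-zone lubricin gene Prg4 at 61935 CPM in DMM and 65290.5 CPM in sham, beside 54547 and 43254 CPM in the superficial-like and 633 and 397 CPM in the chondrocyte-like class, but Col10a1, a hypertrophic marker, was among its leading genes, so it carries no cell type name. Erythroid-like cells made up 9.31% of the DMM and 16.3% of the sham cells although Ter119-positive cells had been sorted out. Ptprc, the CD45 gene, was near 0 in the connective tissue classes. A class-level value below is the class's summed UMIs for a gene divided by all its UMIs and scaled to CPM, and 3' counts do not allow levels of different genes to be compared.

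Of the 6 classes compared, glycolytic RNA was highest in the Krt17-led cluster and next highest in superficial-like cells. The 19 glycolytic genes together took 6228 CPM in DMM and 4889.75 CPM in sham in the Krt17-led cluster, and 4408 CPM in DMM and 3057 CPM in sham in superficial-like cells. In chondrocyte-like cells the sums were 3073 CPM in DMM and 2982 CPM in sham, and in hypertrophic-like cells 2706 CPM and 2550.3 CPM. Lining-like cells stood lowest of the 6 classes compared here, with 2043 CPM in DMM and 1637 CPM in sham, beside 2098 CPM and 1879.9 CPM in fibroblast-like cells. The DMM sum was above the sham sum in each of these 6 classes. Without Gapdh the chondrocyte-like sums were 2550 CPM in DMM and 2562 CPM in sham, and the DMM sum stayed the higher in the other classes.

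The sums of the 17 HIF targets were also highest in the Krt17-led cluster, and their DMM and sham sums did not keep 1 order. They took 4947 CPM in DMM and 4136 CPM in sham in the Krt17-led cluster, and 3785 CPM in DMM and 2513 CPM in sham in superficial-like cells. In chondrocyte-like cells DMM had 1432 CPM and sham 1575 CPM, and in lining-like cells 954 CPM and 993 CPM. A large share came from 1 gene, Ndufa4l2, which encodes a mitochondrial protein that lowers the activity of respiratory complex I. Without it the sums were 2993 CPM in DMM and 2722 CPM in sham in the Krt17-led cluster. In superficial-like cells they were 1982 CPM in DMM and 1548 CPM in sham, still above the 1327 CPM and 1507 CPM of chondrocyte-like cells. Hypertrophic-like cells had 1438 CPM in DMM and 1704 CPM in sham without it, which in sham was above superficial-like cells.

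**Figure D1:**
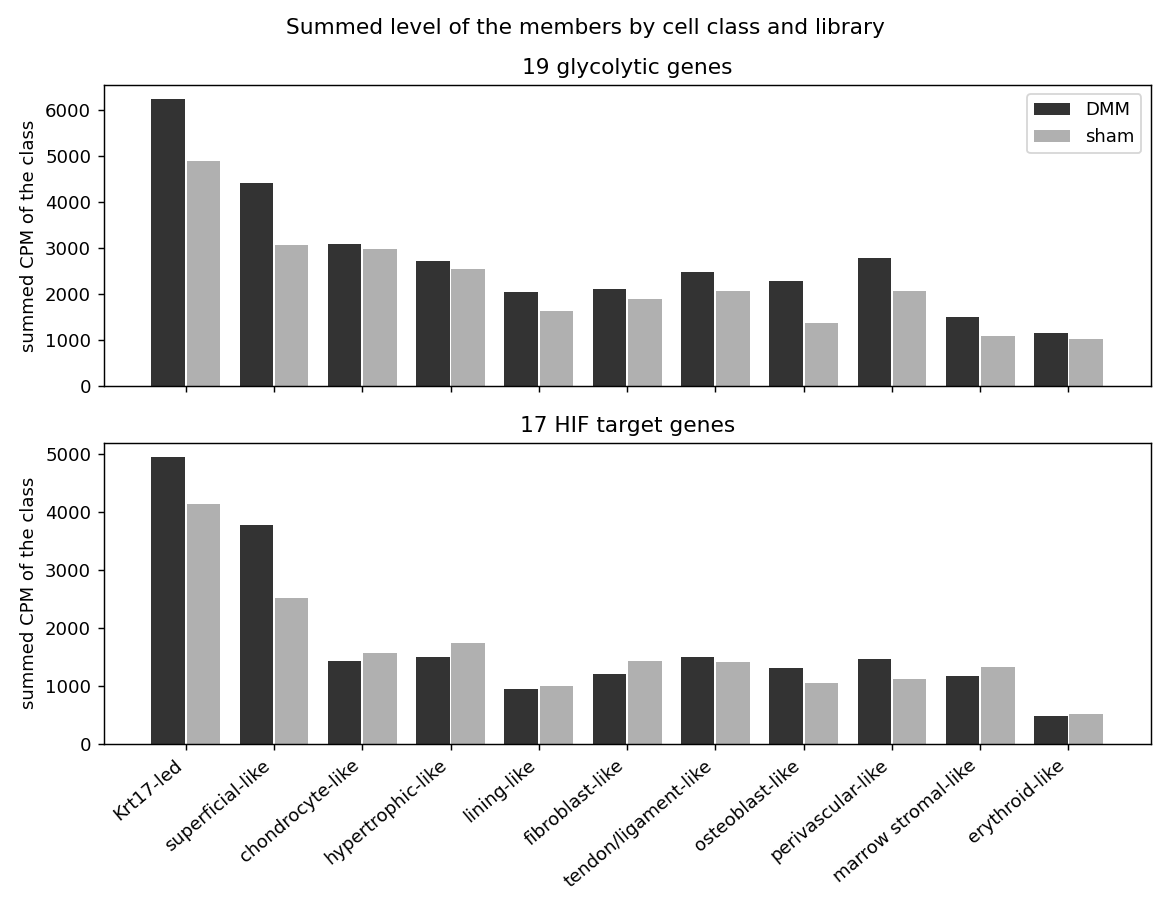
Summed level of the 19 glycolytic genes (top) and the 17 HIF targets (bottom) in 11 cell classes, as CPM of the class on a linear axis, with DMM bars left of sham bars; each bar is 1 library. The Krt17-led cluster reaches 6228 CPM in DMM and 4889.75 CPM in sham for the glycolytic genes, and the erythroid-like class is lowest with 1155 CPM and 1021 CPM.

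Among the 10 connective tissue classes, the Krt17-led cluster held the highest level in both libraries for 11 glycolytic genes and 8 HIF targets. The share of all genes that peak in this cluster was not computed, so these counts have no background. The 11 were the glucose transporter Slc2a1, the lactate exporter Slc16a3, the phosphofructokinase subunit Pfkl, the enzymes Tpi1, Gapdh, Pgk1, Pgam1, Eno1, Pkm and Ldha, and the pyruvate dehydrogenase kinase Pdk1. The 8 were Bnip3, Bnip3l, Egln1, Egln3, P4ha2, Car9, Ndufa4l2 and Higd1a. Other genes peaked elsewhere. Pfkfb3, whose product makes an activator of phosphofructokinase, and the membrane carbonic anhydrase Car12 were highest in chondrocyte-like cells. The aldolase Aldoc, the collagen prolyl hydroxylase subunit P4ha1 and the lipid droplet gene Hilpda were highest in hypertrophic-like cells. Gpi1, which isomerises glucose phosphate, and Ddit4, an inhibitor of mTORC1, were highest in perivascular-like cells. Ndrg1, a stress-responsive gene, was highest in fibroblast-like cells, and the angiogenic factor Vegfa and the MYC antagonist Mxi1 in marrow stromal-like cells. For Hk1, Hk2, Pfkp, Pfkm, Pfkfb4, Ankrd37 and Adm the highest class was not the same in both libraries. Several of these genes, among them Gapdh, Pgk1, Eno1, Tpi1 and Ldha, have near-identical copies in the genome, and Eno1b is a separate feature, so the counting may have split or lost some of their reads.

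Set against chondrocyte-like cells, superficial-like cells had some of the genes at higher and others at lower levels. A fold of 2 in both libraries was reached upwards by 2 of 19 glycolytic genes and 5 of 15 HIF targets with enough UMIs, and downwards by 3 and 2; of all genes 9.59% were that much higher and 13.5% that much lower. The median log2 ratio over the glycolytic genes was 0.65 in DMM and 0.13 in sham, beside 0.03 and 0.04 over all genes. For the HIF targets it was 0.80 in DMM and 0.62 in sham.

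Slc16a3 was 10.4-fold higher in superficial-like than in chondrocyte-like cells in DMM (92.8 and 8.94 CPM) and 5.29-fold higher in sham (54.0 and 10.2 CPM). Pfkfb4, a second regulator of phosphofructokinase, was 2.03-fold higher in DMM and 3.56-fold higher in sham. The opposite held for Pfkfb3, which was 6.75-fold lower in superficial-like cells in DMM (25.6 and 172 CPM) and 7.42-fold lower in sham (36.1 and 268 CPM). These regulators of the same step lay on opposite sides. Hk2, a hexokinase that traps glucose in the cell, was 3.43-fold lower in superficial-like cells in DMM (103 and 354 CPM) and 4.86-fold lower in sham (69.8 and 339 CPM), while the hexokinase Hk1 had 125 CPM in both classes in DMM, and 146 and 159 CPM in sham. Aldoc, at no more than 5.64 CPM in either class, was 2.83-fold lower in DMM and 2.10-fold lower in sham.

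Of the HIF targets, Ndufa4l2 had 1803 CPM in superficial-like and 104 CPM in chondrocyte-like cells in DMM, and 965 and 67.4 CPM in sham, a difference of 17.3-fold and 14.3-fold. Egln3, a prolyl hydroxylase that acts on HIF and is itself induced by it, was 18.2-fold higher in DMM (25.003 CPM, and 1.38 CPM from 20 UMIs) and 13.5-fold higher in sham (17.4 CPM, and 1.29 CPM from 28 UMIs). The mitochondrial protein gene Higd1a was 3.55-fold and 2.17-fold higher, the ankyrin repeat gene Ankrd37 4.49-fold and 2.53-fold, and the main HIF prolyl hydroxylase Egln1 2.63-fold and 2.11-fold, in DMM and sham. Car12 was far lower in superficial-like cells, with 0.885 CPM in superficial-like and 181 CPM in chondrocyte-like cells in DMM, and 1.30 and 204 CPM in sham. Hilpda was 8.13-fold lower in superficial-like cells in DMM and 14.4-fold lower in sham. The related carbonic anhydrase Car9 was near the limit of counting in both classes, at 2.10 CPM in DMM and 1.02 CPM in sham in superficial-like cells.

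Shares of cells with a UMI were compared after every cell had been thinned to 2000 UMIs, with shallower cells left out. A Ndufa4l2 UMI was found in 82.2% of superficial-like cells in DMM and 61.1% in sham, and in 12.9% and 8.69% of chondrocyte-like cells. The share was 1.18% and 0.947% in erythroid-like cells, which are not expected to make it. Car12 was seen in 29.1% of chondrocyte-like cells in DMM and 30.8% in sham, and in 0.385% of superficial-like cells in sham. In DMM 0 of 1018 thinned superficial-like cells held one, which allows a share of up to 0.295% at that depth, while unthinned 0.680% of superficial-like cells held one. Unthinned, the Ndufa4l2 shares were 90.6% in DMM and 72.4% in sham in superficial-like cells, 31.6% and 27.2% in chondrocyte-like cells, and 6.97% and 3.30% in erythroid-like cells.

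The Krt17-led cluster was set against superficial-like cells as the other class with high Prg4. None of 18 glycolytic genes and 2 of 14 HIF targets, Egln3 and Ndrg1, were 2-fold higher in both libraries, and none were 2-fold lower; of all genes 2.36% were higher and 2.7% lower. Egln3 had 78.8 CPM in DMM and 99.1 CPM in sham in the Krt17-led cluster, against 25.003 and 17.4 CPM in superficial-like cells. Set against chondrocyte-like cells, 7 of 19 glycolytic genes and 10 of 15 HIF targets were 2-fold higher in both libraries, where 10.0% of all genes were, and 1 and 2 were lower, where 14.2% were. Those higher included Pgk1 (3.37-fold in DMM, 2.63-fold in sham), the mitophagy receptor Bnip3 (4.25-fold and 3.72-fold) and the collagen prolyl hydroxylase subunit P4ha2 (3.01-fold and 2.50-fold). Hypertrophic-like and chondrocyte-like cells did not pass 2-fold on these genes: none of 19 glycolytic genes and none of 13 HIF targets did so in both libraries in either direction, beside 2.22% of all genes higher and 4.55% lower.

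Lining-like cells, which share the high Prg4 level with superficial-like cells, had less of both groups of genes. Superficial-like cells were 2-fold higher than lining-like cells in both libraries for 8 of 18 glycolytic genes and 7 of 14 HIF targets, where 9.67% of all genes were, and lower only for Mxi1, where 13.1% were. Eno1 had 319.7 CPM in superficial-like and 86.4 CPM in lining-like cells in DMM, and 179.6 and 52.5 CPM in sham. Hk1 was 3.00-fold higher in DMM and 3.27-fold higher in sham, and Pgk1 3.46-fold and 2.53-fold. P4ha2 was 4.60-fold and 3.69-fold higher, and Ndufa4l2 24.7-fold and 15.6-fold. Mxi1 was 2.30-fold lower in superficial-like cells in DMM and 3.50-fold lower in sham.

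Lining-like and fibroblast-like cells, whose glycolytic sums were close, differed in single genes. Slc16a3 was 2.00-fold higher in lining-like cells in DMM (31.1 and 15.5 CPM) and 3.48-fold higher in sham (27.1 and 7.78 CPM), and Pfkfb4 2.18-fold and 3.18-fold. Hk2 was 4.03-fold lower in lining-like cells in DMM (86.9 and 350.0 CPM) and 6.29-fold lower in sham (77.0 and 484 CPM). Ndrg1, Vegfa and the vasodilator peptide gene Adm were also lower in lining-like cells in both libraries, so that 2 of 17 glycolytic genes and none of 13 HIF targets were higher (4.11% of all genes) and 1 and 3 lower (8.48% of all genes). Chondrocyte-like cells set against fibroblast-like cells had 6 of 18 glycolytic genes and 3 of 15 HIF targets 2-fold higher in both libraries (14.8% of all genes), and no glycolytic gene and 3 HIF targets lower (20.0%). Pfkfb3 stood 11.9-fold higher in DMM and 16.2-fold higher in sham and Car12 129-fold and 116-fold, whereas Adm was 41.4-fold lower in DMM and 47.3-fold lower in sham.

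**Figure D2:**
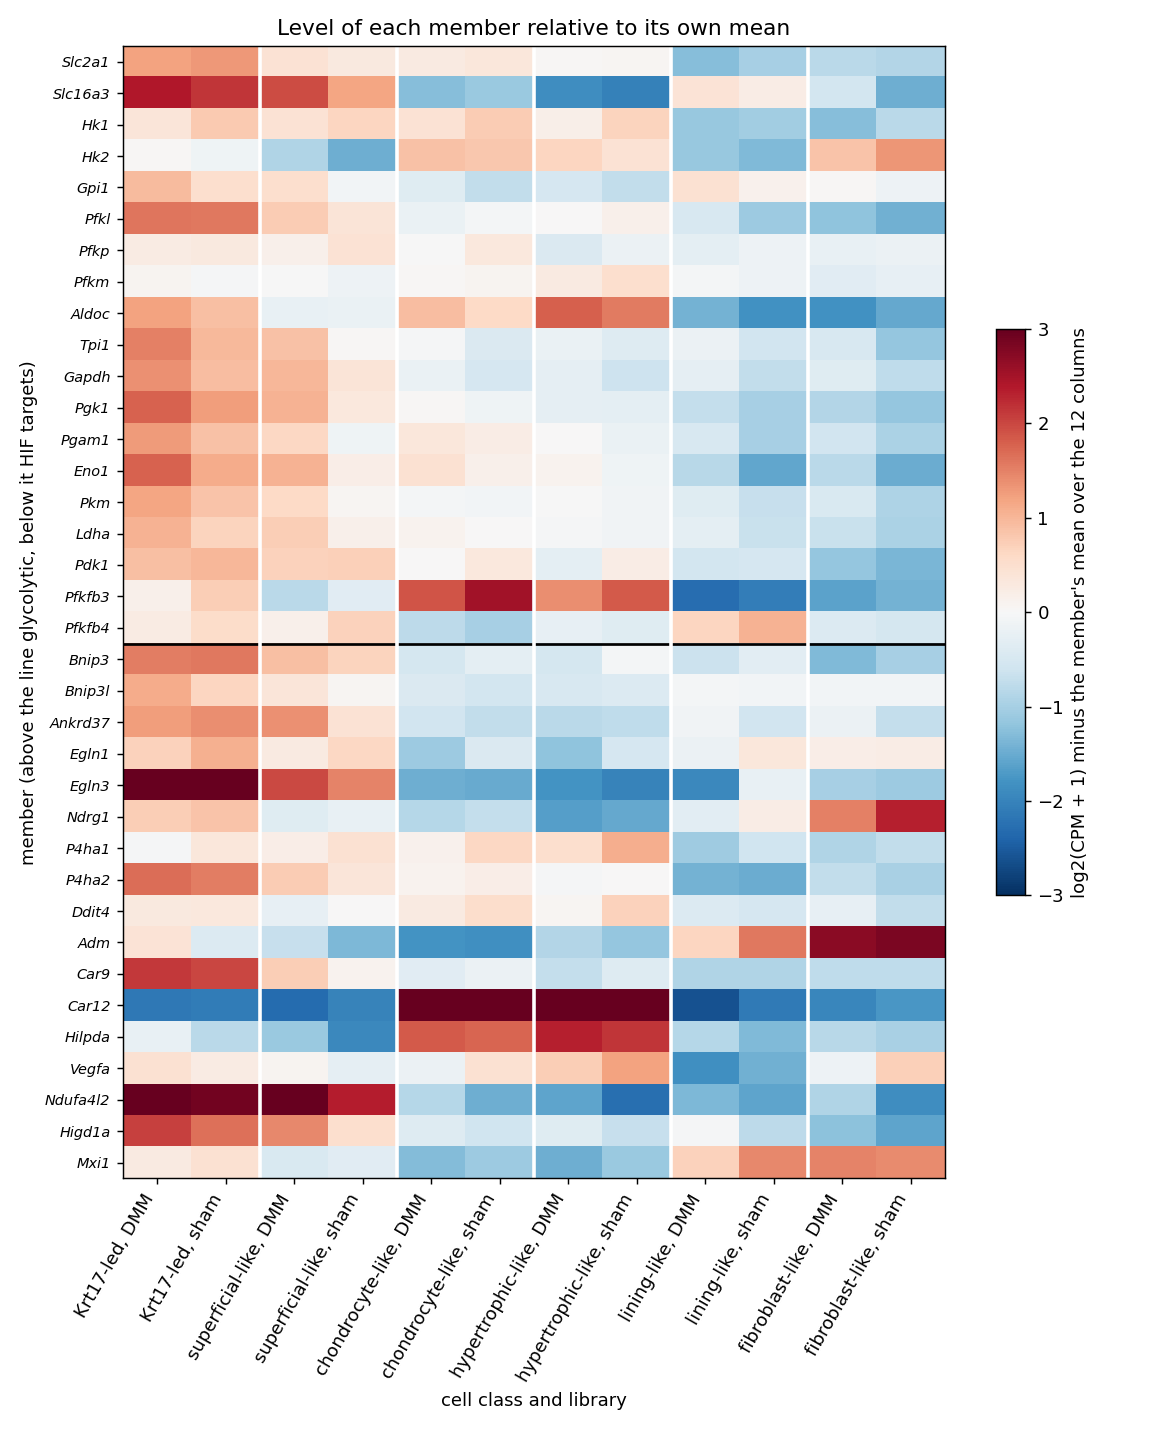
Colour map of each member's log2(CPM + 1) minus its own mean over the 12 columns, for 6 cell classes with the DMM column left of the sham column; red is above and blue below the member's mean, and the black line parts the glycolytic genes from the HIF targets. Most later glycolytic enzymes are red in the Krt17-led and DMM superficial-like columns, Pfkfb3, Car12 and Hilpda in the chondrocyte-like and hypertrophic-like columns, and Ndrg1, Adm and Mxi1 in the fibroblast-like columns.

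Across 19 clusters of connective tissue cells, the later glycolytic enzymes followed one another. The Spearman correlation of a gene's level with the summed level of the other glycolytic genes was 0.91 in DMM and 0.95 in sham for Pgam1, 0.94 and 0.92 for Eno1, and 0.92 and 0.91 for Pgk1. It was over 0.5 in both libraries for 13 of 19 glycolytic genes and 5 of 17 HIF targets, namely Bnip3, P4ha1, P4ha2, Ndufa4l2 and Higd1a. Over all genes its median was −0.12 in both libraries and its upper quartile 0.22 in DMM and 0.25 in sham. The share of all genes over 0.5 in both libraries was not computed. Hk2 did not follow (−0.05 in DMM and −0.03 in sham), and Pfkfb4 (−0.27 and −0.55), Adm (−0.57 and −0.71) and Mxi1 (−0.40 and −0.67) ran against the sum. The clusters of 1 library share its handling and its free RNA, and these values are descriptions.

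After DMM, glycolytic RNA was higher in superficial-like cells across most steps of the pathway. Of 18 glycolytic genes with at least 100 UMIs, 11 were over 25% higher in DMM and 2 were over 20% lower; these limits define higher and lower between libraries from here on. Of all genes 12.5% were higher and 38.1% lower. The median log2 ratio over the 18 was 0.55, beside −0.20 over all genes. Slc2a1, Pdk1, Hk1, Pfkp and Pfkm stayed within these limits, and Aldoc had too few UMIs to count. Outside the 6 classes compared, the glycolytic median was 0.60 in osteoblast-like, 0.60 in marrow stromal-like, 0.53 in perivascular-like and 0.28 in tendon/ligament-like cells. Over all genes these classes had −0.09, −0.09, −0.07 and −0.12. With a gene's own log2 ratio in erythroid-like cells taken off, 5 of the 15 glycolytic genes with a value there were higher in superficial-like cells. Before this step 10 of these 15 were higher, and after it Pkm was lower. The share of all genes past the limits after this step was not computed, for this class or those below. The erythroid-like class differed in make-up: its Car1-led cluster held 431 DMM and 514 sham cells, its Hist1h2bn-led cluster 360 and 774. Their glycolytic median log2 ratios were −0.013 and 0.0014, beside 0.23 over the class. Summed glycolytic levels were 1401 and 1395 CPM in the first and 613 and 639 CPM in the second, in DMM and sham. The part of this make-up in the erythroid-like ratio was not tested.

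By step, the entry enzyme Hk2 had 103 CPM in DMM and 69.8 CPM in sham, 1.48-fold higher (95% interval 1.34 to 1.63). Gpi1 had 113 CPM in DMM and 75.2 CPM in sham, and Pfkl 43.9 and 33.9 CPM. The steps that follow split the sugar and harvest its energy. Tpi1 had 312 CPM in DMM and 172 CPM in sham, 1.82-fold higher (1.71 to 1.93), and Gapdh 1196 and 785 CPM, 1.52-fold higher (1.48 to 1.57). Pgk1 had 237 CPM in DMM and 143 CPM in sham, and Pgam1 326 and 193 CPM. Eno1 was 1.78-fold higher (1.68 to 1.89), while Pkm, the last enzyme before lactate, had 547 CPM in DMM and 375 CPM in sham. Ldha, which makes lactate, was 1.52-fold higher (1.46 to 1.58), and the lactate exporter Slc16a3 1.72-fold (1.54 to 1.91). The 2 genes that were lower were both regulators of phosphofructokinase: Pfkfb3 had 25.6 CPM in DMM and 36.1 CPM in sham, and Pfkfb4 15.6 and 23.2 CPM.

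Among HIF targets of superficial-like cells 7 of 14 were over 25% higher in DMM and 1 was lower, with a median log2 ratio of 0.35. Ankrd37 had 20.4 CPM in DMM and 10.2 CPM in sham (log2 ratio 1.00), Higd1a 801 and 422 CPM (0.93), and Hilpda 15.9 and 8.48 CPM (0.91). Ndufa4l2 had a log2 ratio of 0.90, Egln3 of 0.52, P4ha2 of 0.39 and Vegfa of 0.37. Egln1 was the 1 that was lower, with 49.0 CPM in DMM and 62.9 CPM in sham. Bnip3, Bnip3l, Ndrg1, Ddit4, P4ha1 and Mxi1 stayed within these limits, and Adm, Car9 and Car12 had too few UMIs to count.

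The superficial-like class was made of a cluster led by Casr (544 DMM and 796 sham cells) and a cluster led by Msmp (485 and 523 cells), and the glycolytic genes were counted in each. In the Casr-led cluster 10 of 17 glycolytic genes were higher in DMM and 2 lower (12.6% and 36.6% of all genes), with a median log2 ratio of 0.49. In the Msmp-led cluster 11 of 17 were higher and 1 lower (14.9% and 37.8%), with a median of 0.63. Eno1 had 329 CPM in DMM and 160.4 CPM in sham in the Msmp-led cluster and 309 and 195 CPM in the Casr-led cluster. Bnip3 had 146 CPM in DMM and 95.3 CPM in sham in the Msmp-led cluster, and 177 and 167 CPM in the Casr-led cluster. Pfkfb4 had 9.48 CPM in DMM and 23.1 CPM in sham in the Casr-led cluster, and 21.0 and 23.4 CPM in the Msmp-led cluster.

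In the Krt17-led cluster several later glycolytic enzymes were higher in DMM. There 9 of 19 genes were over 25% higher in DMM and 2, Hk1 and Pfkfb3, lower, where 14.5% of all genes were higher and 27.0% lower; the median log2 ratio was 0.25, beside −0.08 over all genes. With the erythroid-like ratio taken off, 1 of the 15 genes with a value, Eno1, was higher, against 8 of these before, and 2, Hk2 and Pkm, were lower. The interval of Aldoc, 1 of the 9, included equality (0.833 to 1.94). Eno1 had 530.1 CPM in DMM and 339 CPM in sham, and Tpi1 483 and 330.1 CPM. Of 16 HIF targets 5 were higher and 3 lower. Adm had 9.03 CPM in DMM and 4.70 CPM in sham, and the mitophagy receptor Bnip3l 223 and 163 CPM. Egln3 was lower here, with 78.8 CPM in DMM and 99.1 CPM in sham, and so were Egln1 and P4ha1.

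In chondrocyte-like cells the glycolytic genes moved both ways. Of 19 genes 3 were over 25% higher in DMM (Tpi1, Gpi1 and Aldoc) and 3 lower (Pfkfb3, Hk1 and Pfkp), where 8.09% of all genes were higher and 30.0% lower; the median log2 ratio was 0.06, beside −0.15 over all genes. Aldoc rested on 175 UMIs, and the interval of its fold (0.963 to 1.79) included equality. Pfkfb3 had 172 CPM in DMM and 268 CPM in sham, 1.56-fold lower (1.48 to 1.63). Of 14 HIF targets 1 was higher and 3 lower, with a median of −0.16. Vegfa had 48.3 CPM in DMM and 75.8 CPM in sham, P4ha1 321 and 449 CPM, and Egln1 18.6 and 29.8 CPM, all lower in DMM. Ndufa4l2 was the 1 that was higher, with 104 CPM in DMM and 67.4 CPM in sham.

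**Figure D3:**
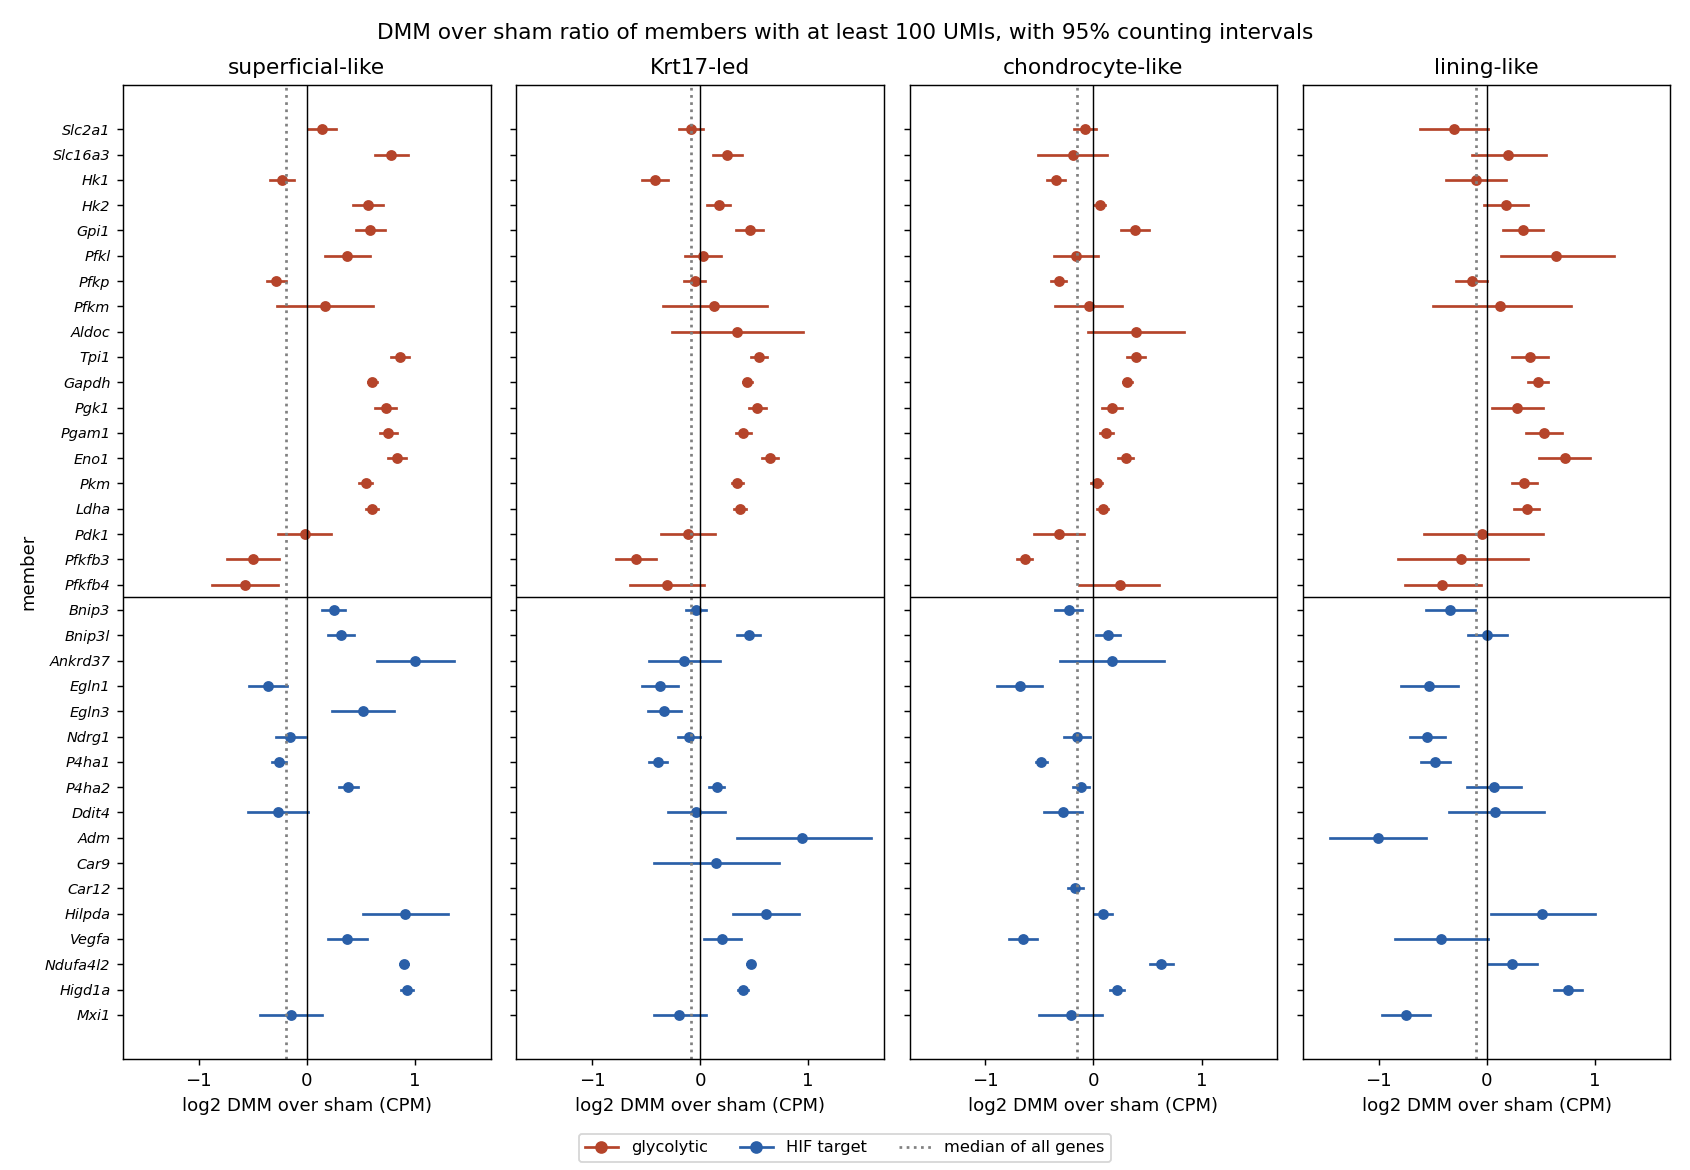
Log2 DMM over sham ratio of each member with at least 100 UMIs, with 95% counting intervals as bars, in 4 cell classes; red points are glycolytic genes, blue points HIF targets, and the dotted line is the median of all genes. In superficial-like cells 11 glycolytic points lie to the right beyond 25%, and in chondrocyte-like cells 3 lie to the right and 3 to the left.

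In hypertrophic-like cells 1 of 18 glycolytic genes was higher (Gapdh) and 3 lower (Hk1, Pdk1 and Pfkfb3), where 10.5% of all genes were higher and 34.1% lower. Of 13 HIF targets 2 were higher and 6 lower, with a median log2 ratio of −0.30, beside −0.17 over all genes; the interval of Mxi1, 1 of the 6, included equality. With the trend of all genes on genomic span taken off, the HIF target median was −0.04, with 1 higher and 4 lower. After the same step 11.99% of all genes were higher and 14.003% lower. P4ha1 had 416 CPM in DMM and 619 CPM in sham, Vegfa 91.9 and 128 CPM, and Ddit4 26.0 and 40.5 CPM.

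In lining-like cells the 2 groups of genes had medians on opposite sides of that of all genes. Of 18 glycolytic genes 8 were over 25% higher in DMM and 1, Pfkfb4, lower, with a median log2 ratio of 0.24; of 13 HIF targets 2 were higher and 7 lower, with a median of −0.34. Of all genes 18.7% were higher and 31.4% lower, with a median of −0.10. With the erythroid-like ratio taken off, 2 of the 15 glycolytic genes with a value, Pfkl and Eno1, were higher, against 8 of these before, and 2, Hk2 and Pkm, were lower. The 9 HIF targets with a value had a median of 0.07 before and 0.0090 after. Eno1 had 86.4 CPM in DMM and 52.5 CPM in sham, 1.65-fold higher (1.40 to 1.94), and Pgam1 152 and 105 CPM. Higd1a had 290.3 CPM in DMM and 172 CPM in sham. Adm had 10.7 CPM in DMM and 21.6 CPM in sham, Mxi1 46.2 and 77.8 CPM, and Ndrg1 92.3 and 135 CPM. Vegfa was counted as lower, at 14.6 CPM in DMM and 19.6 CPM in sham, but the 95% interval of the fold by which it was lower (0.989 to 1.80) includes equality.

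Fibroblast-like cells had 6 of 18 glycolytic genes higher in DMM and 2, Hk1 and Hk2, lower (19.5% and 24.5% of all genes), with a median log2 ratio of 0.24. Slc16a3 had 15.5 CPM in DMM and 7.78 CPM in sham, Tpi1 121 and 74.4 CPM, and Pkm 265 and 190.3 CPM. Hk2 had 350.0 CPM in DMM and 484 CPM in sham. Of 13 HIF targets 3 were higher and 3 lower, with a median of 0.02. Ndufa4l2 had 99.7 CPM in DMM and 50.6 CPM in sham, whereas Vegfa had 49.3 and 91.4 CPM and Ndrg1 332 and 588 CPM.

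The make-up of the fibroblast-like class differed between libraries, and some of these ratios were different within finer clusters, which were drawn after the values had been seen. A cluster led by Ccl7 held 391 DMM and 560 sham cells, 1 led by Angptl1 651 and 210, and 1 led by Pi16 238 and 480. Vegfa was lower in DMM in all 3, with log2 ratios of −1.07, −0.76 and −0.98, and Ndrg1 had −0.67, −0.33 and −0.21. Hk2 had −0.32, 0.09 and −0.32, and Ndufa4l2 0.33, 0.57 and −0.36. Ddit4, a HIF target with a log2 ratio of 0.51 in the class, had −0.09, 0.35 and −0.61.

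Several other measures were set beside the DMM and sham difference. Haemoglobin RNA in superficial-like cells was 1209 CPM in DMM and 3303 CPM in sham, in lining-like cells 1077 and 3003 CPM, and in chondrocyte-like cells 828 and 615 CPM. Genes known to respond to tissue dissociation summed to 6457 CPM in DMM and 6737 CPM in sham in superficial-like cells. Of these 18 genes 0 were over 25% higher and 5 over 20% lower (12.5% and 38.1% of all genes). Their median log2 ratio was −0.23, beside −0.20 over all genes. In erythroid-like cells, which should lack it, Ndufa4l2 had 11.1 CPM in DMM and 4.99 CPM in sham. Taking the erythroid-like log2 ratio off that of superficial-like cells left −0.25 for Ndufa4l2 and −0.36 for Pkm. In fibroblast-like cells 3 of 15 glycolytic genes were higher after this step (Eno1, Pdk1 and Pfkfb4), against 5 before. Only Eno1 was higher both times. In chondrocyte-like cells 1 was higher after it, Pfkfb4, against 2 before, and Pfkfb4 was not among those 2. Members with under 100 UMIs in erythroid-like cells, such as Slc16a3, Ankrd37, Egln3 and Vegfa, had no value. Hk2 had only 4.37 CPM in DMM and 3.08 CPM in sham there, so taking off its erythroid-like ratio adds much counting error. Pkm was also low there, with 9.70 CPM in DMM and 5.16 CPM in sham. Of the Ndufa4l2 UMIs of erythroid-like cells, 1 cell held 16.5% in DMM and 1 cell 15.1% in sham. The part of these measures in the result was not tested.

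A gene's length also moved with its ratio. In superficial-like cells the Spearman correlation of the DMM over sham log2 ratio with the gene's genomic span was −0.55 over 9397 genes, with a median of 0.17 among genes spanning up to 11.7 kb and −0.45 among those from 65.6 kb. In chondrocyte-like cells it was −0.51, and in erythroid-like cells −0.47. The counted glycolytic genes of superficial-like cells had a median span of 26.1 kb. With the trend of all genes on span taken off, their median log2 ratio was 0.56, with 13 of 18 over 25% higher and 0 lower (14.7% and 15.6% of all genes), and that of the HIF targets was 0.43. In chondrocyte-like cells the same step gave 0.15 and 0.06. In lining-like cells it gave 0.25 and −0.31, with 5 of 18 glycolytic genes higher (17.1% of all genes). Hk1 in chondrocyte-like cells was left at 0.0086, so it was no longer lower there.

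**Figure D4:**
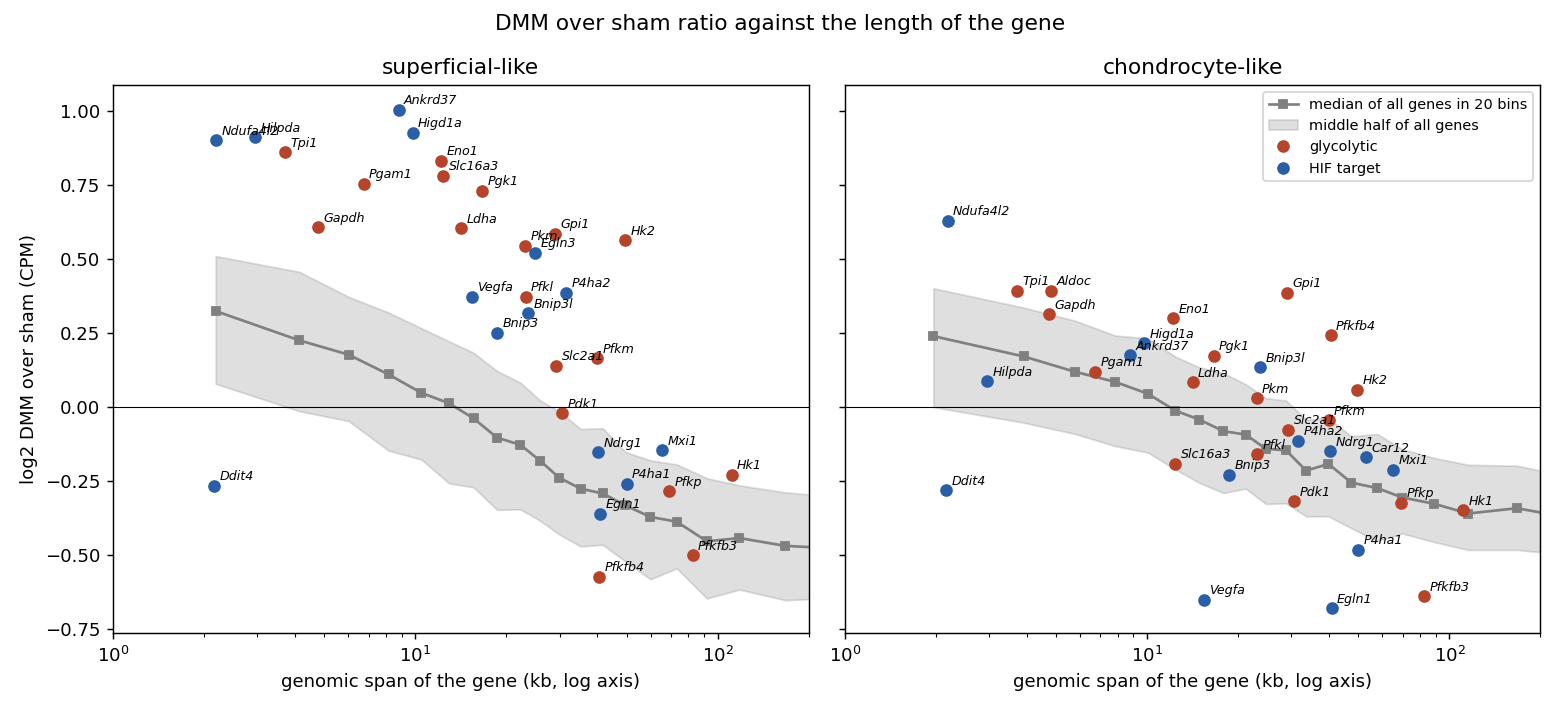
Log2 DMM over sham ratio against the gene's genomic span in kb (log axis) in superficial-like and chondrocyte-like cells; the grey line and band give the median and interquartile range of all genes in 20 span bins, red points are glycolytic genes and blue points HIF targets. In superficial-like cells Tpi1, Eno1, Ankrd37 and Higd1a lie above the band at their spans, and Hk1 and Pfkp lie on or near it.

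Other genes of glycolysis, from a wider list, lay near the background. In superficial-like cells 1 of 22 was over 25% higher in DMM and 7 were lower, where 12.5% of all genes were higher and 38.1% lower, and the median log2 ratio was −0.19, beside −0.20 over all genes. With the span trend taken off, 4 were higher and 4 lower (14.7% and 15.6% of all genes after the same step). Pdk4, a kinase that keeps pyruvate out of the mitochondrion, had 5.09 CPM in DMM and 13.9 CPM in sham, and Pgm1, which turns glucose phosphates into one another, 24.3 and 17.6 CPM. Pdk4 was lower in chondrocyte-like cells as well, with 4.13 CPM in DMM and 13.1 CPM in sham, where 0 of 22 genes were higher and 5 lower (8.09% and 30.0% of all genes). Other hypoxia genes went both ways in superficial-like cells, 9 of 47 higher and 14 lower (12.5% and 38.1% of all genes), with a median of 0.03. With the span trend taken off, 16 were higher and 8 lower (14.7% and 15.6% of all genes after the same step). Mif, a cytokine gene, had 459 CPM in DMM and 201 CPM in sham and the mitochondrial gene Fam162a 538 and 272 CPM, while the lysyl oxidase Loxl2 had 45.2 and 85.2 CPM and the histone demethylase Kdm3a 34.1 and 55.6 CPM.

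Genes of the mitochondrial respiratory chain were also often higher in DMM. In superficial-like cells 30 of 46 were over 25% higher and 0 lower (12.5% and 38.1% of all genes), with a median log2 ratio of 0.40, and in chondrocyte-like cells 22 of 46 were higher and 0 lower (8.09% and 30.0%), with 0.29. Cox8a, a subunit of cytochrome oxidase, had 406 CPM in DMM and 254 CPM in sham in superficial-like cells and 368 and 253 CPM in chondrocyte-like cells. These genes are short, with a median span of 7.20 kb, and taking off the span trend left medians of 0.24 and 0.21. After this step 17 of 46 were higher and 0 lower in superficial-like cells (14.7% and 15.6% of all genes). In chondrocyte-like cells 10 were higher and 1 lower (9.76% and 12.5% of all genes). These values were computed after the others had been seen. Of the citric acid cycle genes, 2 of 13 were higher and 3 lower in superficial-like cells and 2 of 14 higher and 0 lower in chondrocyte-like cells.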

How the data were processed

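Single-cell RNA was measured in 1 DMM and 1 sham library, each from 3 pooled mice. The deposited values are raw UMI counts per gene and barcode, made with Cell Ranger 7.1.0 per the file headers, whereas Cell Ranger 3.0.1, Seurat, STAR, HTSeq, DESeq2 and mm10 are named in the submitters' processing notes. A bulk table with 6 columns of per-sample values could not be tied to labelled samples and was not used here. The members and gene lists were chosen with earlier results of these data known.

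Barcodes needed 500 or more genes and 10% or fewer mitochondrial UMIs, and 342 DMM and 509 sham doublets called by Scrublet among them were removed. Scanpy 1.11.5 normalised cells to 10000 UMIs, chose 2000 variable genes from which the pathway lists were then left out, and took 30 principal components, 15 neighbours and Leiden clusters at resolution 1.0 (seed 1, leidenalg 0.10.2), which gave 27 clusters. Clusters were named from 21 marker lists, where a name needed a score of at least 0.75, at least 3 detected markers and no contradiction among the 10 leading genes. Class names rebuilt in this way may differ from those of the study.

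CPM is a gene's UMIs over all cells of a class and library, divided by the class total. For a ratio the 95% interval is the exact conditional binomial and for a share the Clopper-Pearson interval, and both cover counting error only. A gene counted with at least 100 UMIs, and was called over 25% higher or over 20% lower between libraries or past 2-fold between classes in both libraries; the share of all genes past the same fold is printed as the background. All 36 members could be named, and of each wider list the 3 highest and 3 lowest ratios in superficial-like and in chondrocyte-like cells. Aldoa, with 2 identifiers, and Ero1a were not measured. Gene spans came from GENCODE vM21 (GRCm38), promoters from RefSeq GRCm38.p6; Bnip3l, Ndrg1 and Ndufa4l2 had no promoter entry. The ratio scripts were tested on simulated data. Values and figures were made with pandas 2.3.3, scipy 1.17.1 and numpy 2.4.6 in Python 3.11.15 and matplotlib 3.10.9.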

Additional observations from a re-analysis of the deposited data

Results flagged for a closer look

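For 5 members the DMM over sham ratio was over 25% higher in 1 cell class and over 20% lower in another. With 1 library for each surgery none of these differences between classes was tested. Hk2, a hexokinase, had a log2 ratio of 0.56 in superficial-like and −0.47 in fibroblast-like cells. The first was 0.057 with the erythroid-like ratio taken off, and the second was −0.32, 0.09 and −0.32 in the finer clusters. That erythroid-like ratio rested on low levels, 4.37 CPM in DMM and 3.08 CPM in sham, and 1 cell held 12% of the DMM UMIs. Egln3, a HIF prolyl hydroxylase, had 0.52 in superficial-like cells and −0.33 in the Krt17-led cluster, where its level was highest; with the span trend taken off the second was −0.27. Ddit4, an mTORC1 inhibitor, had 0.51 in fibroblast-like and −0.64 in hypertrophic-like cells, and the first of these changed sign within finer clusters. Adm, a vasodilator peptide gene, had 0.94 in the Krt17-led cluster and −1.01 in lining-like cells. Vegfa, an angiogenic factor, had 0.37 in superficial-like and −0.89 in fibroblast-like cells.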

How the results depend on the processing

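There were 193 member ratios with at least 100 UMIs, 94 of them over 25% higher or over 20% lower; for 4 of the 94 the interval included equality. The other settings gave 1266 values for these 94, of which 20 turned sign, and 78 of the 94 kept their sign under all settings run. For the 99 ratios within the limits, 172 of 1316 values turned sign. No paired analysis was possible because each surgery has 1 library.

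Median-of-ratios scaling gave glycolytic medians of 0.75 in superficial-like and 0.21 in chondrocyte-like cells, and HIF target medians of 0.54 and −0.0091. It left 1 glycolytic gene and 0 HIF targets lower in superficial-like cells, and 7 glycolytic genes higher, 1 lower and 3 HIF targets higher in chondrocyte-like cells. It moved the DMM superficial over lining medians to 1.48 and 1.56. As it takes the median over all genes off every ratio, it moves the counts of all genes too. For the counts in this section, the share of all genes was computed only for the main setting and after the span step. CPM without the most abundant genes gave 0.75 in DMM and 0.20 in sham for the glycolytic superficial over chondrocyte medians, and 1.29 and 1.37 for the DMM superficial over lining medians of glycolytic genes and HIF targets. With it 0 HIF targets were lower in superficial-like cells, and 5 glycolytic genes were higher and 1 lower in chondrocyte-like cells.

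Centring the clustering by library, which made clusters mostly of 1 library, gave glycolytic medians of 0.39 in the Krt17-led cluster and 0.66 in superficial-like cells, with 5 glycolytic genes and 2 HIF targets higher in chondrocyte-like cells. Taking off the erythroid-like ratio gave glycolytic medians of 0.081, 0.26 and −0.10 in the Krt17-led cluster, superficial-like and chondrocyte-like cells and a HIF target median of 0.0090 in lining-like cells, against −0.34, or 0.067 over the 9 targets with a value. In superficial-like cells 15 glycolytic genes and 9 HIF targets had a value; 5 and 4 of these were higher, against 10 and 4 before, and 1 and 0 lower, against 1 and 1. In chondrocyte-like cells 1 glycolytic gene was higher with it, Pfkfb4, which had not been higher before. It turned Pkm to −0.56 in the Krt17-led cluster, −0.36 in superficial-like, −0.56 in lining-like and −0.43 in fibroblast-like cells, and Ndufa4l2 to −0.69 in the Krt17-led cluster, −0.25 in superficial-like, −0.52 in chondrocyte-like, −0.46 in hypertrophic-like and −0.18 in fibroblast-like cells. It also turned Tpi1 to −0.052 in chondrocyte-like and −0.047 in lining-like cells, and Pgam1 to −0.026 in fibroblast-like cells. Egln1 turned to 0.0058 in superficial-like and Mxi1 to 0.063 in hypertrophic-like cells. The erythroid-like levels of Pkm and Ndufa4l2 were low, at no more than 11.1 CPM in either library. Taking off the span trend gave medians of 0.15 for glycolytic genes and 0.061 for HIF targets in chondrocyte-like cells, 0 glycolytic genes lower in superficial-like and in chondrocyte-like cells, and 0.0086 for Hk1 in chondrocyte-like cells.

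At resolution 0.5 Msmp-led and Krt17-led cells formed 1 cluster (1431 DMM and 1166 sham cells), which left the Casr-led cells (545 and 793) as the superficial-like class. For superficial over chondrocyte, it gave glycolytic medians of 0.58 in DMM and 0.20 in sham and a HIF target median of 0.78 in sham, resolution 1.5 a glycolytic median of 0.19 in sham, and keeping doublets HIF target medians of 0.67 in DMM and 0.50 in sham. Thinning gave HIF target medians of 0.46 in DMM and 0.24 in sham, and a minimum of 500 UMIs 0.59 in DMM. For superficial over lining the HIF target medians were 0.88 in DMM and 0.82 in sham at resolution 0.5, 1.45 in DMM after thinning and 1.37 in DMM with a minimum of 500 UMIs.

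In superficial-like cells thinning left 1 glycolytic gene and 2 HIF targets lower, a minimum of 500 UMIs 1 glycolytic gene lower and 4 HIF targets higher, and resolution 0.5 gave 3 HIF targets lower. With a fold of 1.5, 0 glycolytic genes and 0 HIF targets were lower and 4 HIF targets higher in superficial-like cells, and 0 glycolytic genes were higher and 1 lower in chondrocyte-like cells. Resolution 1.5 gave 2 HIF targets higher in chondrocyte-like cells. Ddit4 in fibroblast-like cells turned to −0.18 with at least 1000 genes, −0.32 with at most 5% mitochondrial UMIs, −0.0067 with doublets kept, −0.22 at resolution 1.5 and −0.22 with the pathway genes kept in the clustering. The cause was not tested for any of these. Depth left Car9 with a ratio in 1 of the 6 classes, Egln3 and Car12 in 2, and Aldoc, Ankrd37 and Adm in 3.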

Other observations

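The genes of the HIF alpha subunits differed between the surface and deeper classes in different ways; they were chosen after their values had been seen. Epas1, which encodes HIF-2 alpha, had 82.5 CPM in DMM and 115 CPM in sham in superficial-like cells, against 6.19 and 8.78 CPM in chondrocyte-like cells, which is 13.3-fold and 13.2-fold higher. Hif1a, which encodes HIF-1 alpha, had 509.6 CPM in DMM and 499.8 CPM in sham in superficial-like cells, against 534 and 652 CPM in chondrocyte-like cells. In lining-like cells Epas1 had 43.5 CPM in DMM and 71.5 CPM in sham and Hif1a 111 and 138 CPM, the lowest Hif1a levels of the 6 classes compared in the report. Epas1 was lower in DMM than in sham in all of those 6 classes. So were many genes: by the limits used in the report, 24.5% of all genes were lower in fibroblast-like and 38.1% in superficial-like cells. The other classes lay between these shares. In superficial-like cells the median log2 ratio was −0.45 among genes spanning 65.6 kb or more. The Epas1 levels are given without the span trend taken off, so its part in them was not tested.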
